A study of Homo sapiens with 6 samples.

Results

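Mitochondrial ribosomal protein genes, the nuclear genes that encode the proteins of the ribosome inside mitochondria, were compared between SCC9 cells expressing a TEAD inhibitor and SCC9 control cells. They were taken as every symbol of the deposited expression table that consists of MRPL or MRPS, a number and, for 3 of them, a letter from A to C, and rows that shared a symbol were summed. The rule used names and no measured value. It took 79 entries, which gave 76 genes of 19437 in the table, 47 of them with MRPL and 29 with MRPS symbols, on 21 chromosomes. By their known place 49 belong to the large subunit, among them MRPS18A and MRPS30 despite their names, and 26 to the small subunit. MRPS36 is now known as a component of the 2-oxoglutarate dehydrogenase complex and was counted with neither subunit.

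SCC9 is an established human line from a squamous cell carcinoma of the tongue. Poly(A) RNA was sequenced from cells transduced with an adenovirus carrying TEADi, which inhibits the TEAD transcription factors per the series' labels (3 libraries, lettered A, B and C), and from cells transduced with an adenovirus carrying GFP (3 libraries with the same letters). In both groups the virus was added a day after plating at a multiplicity of infection of 25, cells were harvested 48 h after transduction, and the medium held serum and hydrocortisone. The study uses a single line, no untransduced cells were analysed here, and the labels speak of transduction in triplicate without saying that cultures were separate, so the spread behind each p-value is that between libraries and may be technical.

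Mitochondrial ribosomes translate the few proteins that mitochondrial DNA encodes, all of them core subunits of the respiratory chain and of ATP synthase. The RNAs of these ribosomes are made inside mitochondria, while every one of their proteins is encoded in the nucleus, made in the cytosol and imported. Many of the proteins have a counterpart in bacterial ribosomes, and others were added during the evolution of mitochondria. The TEAD proteins bind DNA and recruit YAP1 and TAZ, the co-activators held in check by the Hippo pathway.

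Values are CPM, counts relative to library size scaled by the authors with TMM factors, a scaling that compares libraries after trimming extreme genes. They are not corrected for transcript length, so levels are compared between libraries and not between genes. Library totals lay between 827124 and 915558 CPM, and the same totals in units of the smallest value of the library, the closest the values come to a depth, lay between 9589768 and 15380584. The TEAD target ANKRD1 averaged 1.82 ± 0.10 CPM in TEADi libraries and 80.0 ± 4.38 CPM in GFP libraries (SD, n = 3 each). Other TEAD targets fell less. CYR61 averaged 79.5 ± 5.41 CPM with TEADi and 496 ± 77.8 CPM with GFP, and CTGF 16.5 ± 1.35 and 26.5 ± 4.93 CPM. GFP libraries A and B stood apart from the other 4 in several basal keratinocyte markers. The keratin KRT5 was at 0.172, 0.216 and 0.302 CPM in TEADi libraries. In the GFP group it was at 21.7 CPM in A, 17.2 CPM in B and 0.414 CPM in C. COL17A1 was at 11.9, 9.63 and 1.86 CPM with GFP in letter order, and at 0.776, 0.503 and 0.724 CPM with TEADi. In the same GFP order KRT17 was at 4.29, 3.26 and 0.759 CPM, KRT14 at 3.57, 1.52 and 0.069 CPM, and TP63 at 0.893, 0.910 and 0.138 CPM. With TEADi, KRT17, KRT14 and TP63 did not exceed 0.431 CPM. KRT15, SFN, DSG3 and KRT6A lacked this split. The summed level of 9 basal keratinocyte markers was 26.1 to 30.03 CPM in TEADi libraries and 57.4 to 107 CPM in GFP libraries, most of it from SFN (18.5, 21.6 and 20.7 CPM with TEADi and 60.4, 55.9 and 50.5 CPM with GFP). Of these 9 markers 3 could be tested, and they split: SFN and COL17A1 were called lower, while KRT15 was called higher, with 5.43, 6.11 and 5.25 CPM in TEADi libraries, against 3.21, 3.79 and 2.97 CPM in GFP libraries. The keratin KRT8, a simple epithelial marker, was at 96.9 to 106 CPM in TEADi libraries and 188 to 228 CPM in GFP libraries. The epithelial marker CDH1 was at no more than 1.73 CPM in any library. It was at 1.73, 1.21 and 0.276 CPM with GFP in letter order, and at no more than 0.181 CPM with TEADi. The epithelial keratin KRT19 split alike, at 1.90, 1.21 and 0.138 CPM with GFP and at no more than 0.172 CPM with TEADi. KRT18 and KRT7 did not. EPCAM was at 3.33, 3.41 and 2.21 CPM with GFP in letter order, and at 1.38, 1.73 and 2.11 CPM with TEADi. Every library also held RNA of 5 mesenchymal markers. VIM averaged 1161 CPM with TEADi and 1562 CPM with GFP, CDH2 64.0 and 167 CPM, and COL1A1 254 and 379 CPM. COL1A2 averaged 73.4 CPM with TEADi and 74.5 CPM with GFP, and LUM 180 and 97.2 CPM. Of leukocyte and endothelial markers, CD14 averaged 1.39 CPM in TEADi libraries and 0.307 CPM in GFP libraries, and CDH5 was at no more than 0.238 CPM in any library.

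With TEADi, 64 of the 76 mitochondrial ribosomal protein genes were called lower and 0 higher, and 12 were not called. A gene was called where limma on log2(CPM + 1), a moderated linear model fitted over the 13648 genes that reached 1 CPM in 3 or more libraries, gave a two-sided Benjamini-Hochberg adjusted p under 0.05. All 76 passed that filter. By the same rule 35.3% of all tested genes were called lower and 25.5% higher. The median log2 fold change (TEADi over GFP) was -0.46 over the 76 genes, which is 1.38-fold lower, and -0.07 over all tested genes. The range over the 76 genes was -1.22 to 0.18, 74 values were negative, and 1 gene, MRPL37, passed a 2-fold difference on this scale. In bulk libraries, fewer cells of a type and less RNA per cell cannot be told apart.

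**Figure D1:**
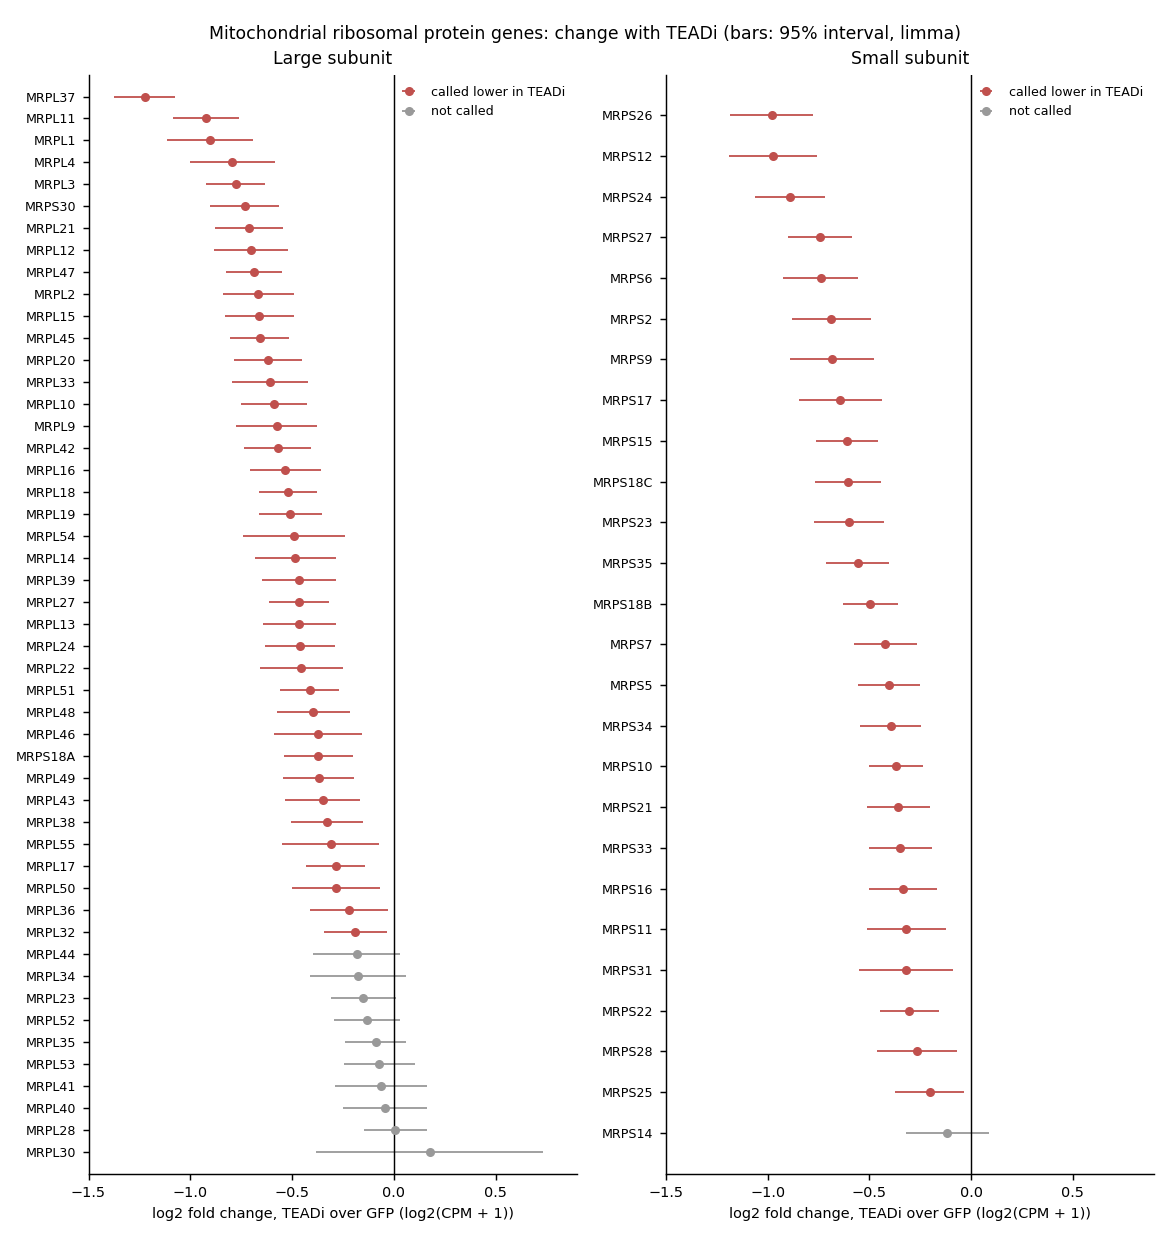
Log2 fold change of each gene, TEADi over GFP on the log2(CPM + 1) scale (horizontal axis), with its 95% interval from limma, for 49 large subunit genes (left) and 26 small subunit genes (right). Red points were called lower in TEADi and grey points were not called, and the points run from -1.22 for MRPL37 to 0.18 for MRPL30 (MRPS36 is not drawn).

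The deposited values showed the same direction library by library. In 66 of the 76 genes the 3 TEADi values all lay below the 3 GFP values, against 38.1% of all tested genes, and in 0 genes did they all lie above, against 27.7% of all tested genes. The summed level of the 76 genes was 3636, 3573 and 3703 CPM in TEADi libraries A, B and C, against 5643, 5078 and 4903 CPM in the GFP libraries of the same letters. The sums averaged 3637 ± 64.99 CPM in TEADi libraries and 5208 ± 387 CPM in GFP libraries (SD, n = 3 each), 30.2% lower with TEADi and without overlap between the groups. Relative to the mean of the GFP libraries, the median gene stood at -0.46, -0.48 and -0.41 on the log2 scale in the TEADi libraries in letter order, and at 0.11, -0.03 and -0.08 in the GFP libraries.

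GFP library A moved with these sums. It was the highest GFP library in 64 of the 76 genes, against 48.6% of all tested genes. Mitochondrially encoded RNA made up 4.19% to 4.86% of the total in TEADi libraries, against 0.898% in GFP library A, 2.84% in GFP library B and 3.20% in GFP library C. Set against GFP libraries B and C alone, the mean sum in TEADi libraries was 27.1% lower. Without GFP library A, 59 of the 76 genes were called lower, beside 33.6% of all tested genes. Leaving out GFP libraries A and B keeps GFP library C alone, with no spread between GFP libraries. The median log2 fold change was then -0.35 over the 76 genes and -0.06 over all tested genes. Equal library totals called 57 of the 76 genes lower, beside 30.2% of all tested genes, median-ratio factors 58, beside 31.1%, and quantile normalization 60, beside 33.3%. The part that basal keratinocyte RNA or mitochondrial RNA content plays in the result was not tested beyond these values. With library totals set equal outside the mitochondrial genome, a setting chosen after seeing the data, 57 of the 76 genes were called lower, beside 28.2% of all tested genes, and the summed level of the 76 genes was 24.4% lower with TEADi. That scaling gave all genes a median of 0.03, against -0.07 as reported, and raised the share of higher calls among all calls to 53.5%, beside 42.0% as reported.

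**Figure D2:**
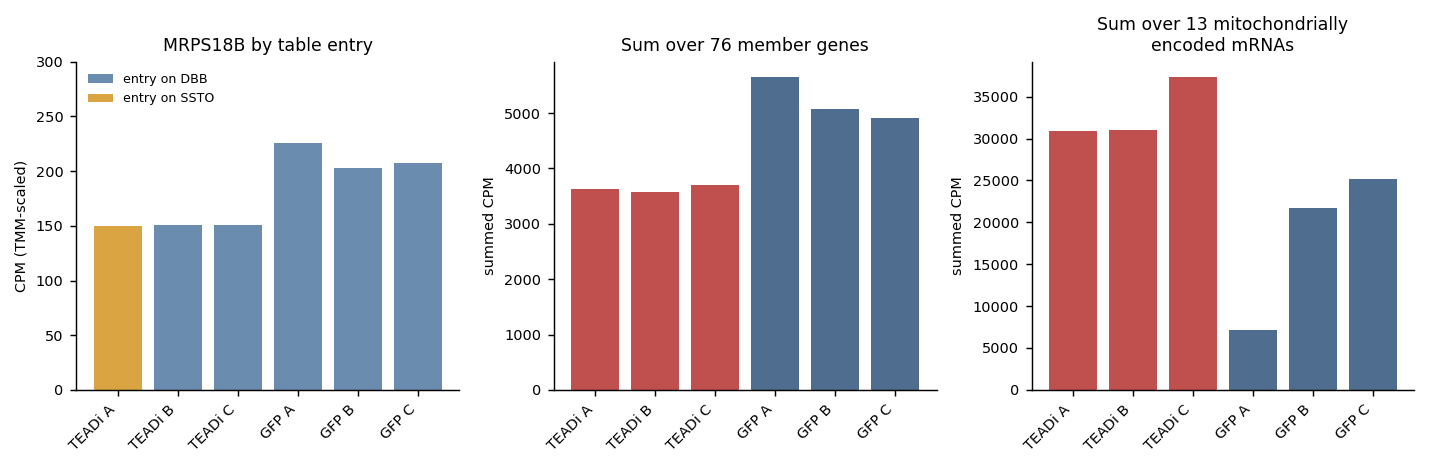
Left, MRPS18B level in CPM in each library, coloured by the table entry that held it. Middle, summed CPM of the 76 mitochondrial ribosomal protein genes, at 3573 to 3703 in the 3 TEADi libraries (red) and 4903 to 5643 in the 3 GFP libraries (blue). Right, summed CPM of the 13 mitochondrially encoded mRNAs, with GFP library A the lowest at 7146.

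Both subunits were lower. Of the large subunit genes 39 of 49 were called lower, with a median log2 fold change of -0.46. Of the small subunit genes 25 of 26 were, also with a median of -0.46, and the exception was MRPS14. Over all tested genes 35.3% were called lower, with a median of -0.07. The summed level of the large subunit genes averaged 2232 ± 49.1 CPM in TEADi libraries and 3186 ± 237 CPM in GFP libraries, 29.9% lower. That of the small subunit genes averaged 1389 ± 15.4 CPM in TEADi libraries and 2003 ± 149 CPM in GFP libraries, 30.7% lower (SD, n = 3 each). Among genes whose protein belongs to a family also found in bacteria, 41 of 47 were called lower with a median of -0.51, and among genes of mitochondria-specific proteins 22 of 27 were with a median of -0.37. The difference between these classes was not tested.

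Promoter sequences were examined because the genes moved together. RefSeq windows of 250 bases before to 50 bases after the start (GRCh38.p14) were found for 67 of the 76 genes, 83 windows in all, and searched on both strands for 4 motifs of factors tied to mitochondrial biogenesis or to TEAD. The ETS motif CCGGAAG, the kind bound by GABPA, was in 38.6% of the members' windows, beside 16.9% of the windows of all tested genes and 10.3% of all windows. The YY1 motif AAGATGGCG was in 15.7%, beside 3.41% and 1.75%. The NRF1 motif, GCGC and TGCGC with any 1 base between them, was in 10.8%, beside 9.88% and 5.78%, and the TEAD motif GGAATG in 14.5%, beside 11.5% and 14.0%. No member window held an ETS and a YY1 match within 8 bases of each other. By gene, the ETS motif was found in 24 of 58 members called lower and 5 of 9 not called, and the TEAD motif in 9 of 58 called lower and 2 of 9 not called. The YY1 motif was found in 12 of 58 called lower and 1 of 9 not called, and the NRF1 motif in 6 of 58 and 2 of 9. A match describes these letters and is not evidence of binding.

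The 200 bases before the RefSeq start of 5 genes described below show each motif in place. They were chosen after the matches were seen, among named genes with a match and with no other RefSeq gene in the stretch, and capitals mark the match on either strand. MRPS26 (chr20:3045852-3046051, plus strand) has the ETS motif at -37 to -31, MRPL11 (chr11:66438849-66439048, minus strand) the TEAD motif at -159 to -154, and MRPL17 (chr11:6683341-6683540, minus strand) the NRF1 motif at -81 to -72. MRPL36 (chr5:1799838-1800037, minus strand) has the NRF1 motif at -110 to -101 and the YY1 motif at -36 to -28, and MRPL52 (chr14:22829687-22829886, plus strand) 2 YY1 motifs at -98 to -90 and -64 to -56.
MRPS26: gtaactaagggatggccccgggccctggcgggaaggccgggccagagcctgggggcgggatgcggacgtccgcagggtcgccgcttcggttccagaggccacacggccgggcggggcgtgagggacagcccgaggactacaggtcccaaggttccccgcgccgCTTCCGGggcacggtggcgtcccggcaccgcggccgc
MRPL11: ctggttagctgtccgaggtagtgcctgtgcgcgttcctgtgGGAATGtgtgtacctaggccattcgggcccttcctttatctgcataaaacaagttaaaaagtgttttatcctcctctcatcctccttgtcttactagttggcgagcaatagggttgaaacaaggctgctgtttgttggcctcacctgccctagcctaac
MRPL17: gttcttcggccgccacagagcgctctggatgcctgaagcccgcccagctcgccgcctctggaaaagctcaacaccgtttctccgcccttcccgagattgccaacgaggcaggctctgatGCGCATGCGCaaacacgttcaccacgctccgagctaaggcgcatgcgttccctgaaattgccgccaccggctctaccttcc
MRPL36: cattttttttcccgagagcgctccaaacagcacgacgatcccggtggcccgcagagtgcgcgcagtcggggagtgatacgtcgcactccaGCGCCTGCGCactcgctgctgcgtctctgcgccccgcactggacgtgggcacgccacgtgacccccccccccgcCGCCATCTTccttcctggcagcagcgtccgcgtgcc
MRPL52: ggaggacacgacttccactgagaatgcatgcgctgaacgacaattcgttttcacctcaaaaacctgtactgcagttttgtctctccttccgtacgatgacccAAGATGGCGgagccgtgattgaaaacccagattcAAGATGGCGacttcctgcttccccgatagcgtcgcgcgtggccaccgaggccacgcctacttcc

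The genes of the factors named by 3 of these motifs were themselves lower. A link between their levels and those of the members was not tested. NRF1, an activator of nuclear genes for mitochondria, averaged 14.3 ± 0.99 CPM in TEADi libraries and 22.1 ± 0.90 CPM in GFP libraries (SD, n = 3 each), a log2 fold change of -0.59 (limma, adjusted p = 4.30e-05). GABPA was at 39.6, 40.4 and 44.1 CPM in TEADi libraries, against 50.9, 43.7 and 50.5 CPM in GFP libraries (log2 fold change -0.22, limma, adjusted p = 0.0278), and its groups overlapped. YY1 averaged 92.6 ± 1.54 CPM with TEADi and 116 ± 4.67 CPM with GFP (-0.32, limma, adjusted p = 0.000329). In a list of 11 regulators of mitochondrial biogenesis and transcription 10 were called lower, beside 35.3% of all tested genes. Among them was TFAM, which packages mitochondrial DNA (80.3 ± 1.66 CPM with TEADi and 124 ± 6.20 CPM with GFP). The exception, PPARGC1A, a co-activator of mitochondrial biogenesis, was called higher at a low level, with 3.54, 5.11 and 5.25 CPM in TEADi libraries and 1.49, 0.910 and 1.03 CPM in GFP libraries (log2 fold change 1.39; limma, adjusted p = 2.19e-06).

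The 8 largest falls were spread over both subunits, with 5 genes of the large and 3 of the small subunit. MRPL37, a mitochondria-specific large subunit protein (hg19 chr1:54649714-54691137, plus strand), had 51.3, 52.1 and 53.9 CPM in TEADi libraries A, B and C, against 134, 123 and 116 CPM in the GFP libraries of the same letters. Its mean was 57.7% lower with TEADi, and its log2 fold change was -1.22 ± 0.07 (SE; limma, Benjamini-Hochberg adjusted p = 2.03e-10). The groups lay far apart, and the TEADi values differed little among themselves. SSBP3, which overlaps MRPL37 on the opposite strand, averaged 23.3% of its level, and the use of strand in counting is not given in the sources used here.

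MRPS26, a mitochondria-specific small subunit protein (hg19 chr20:3026591-3028900, plus strand) whose promoter is shown above, had 31.9, 26.9 and 28.2 CPM in TEADi libraries, against 68.2, 54.9 and 52.2 CPM in GFP libraries. MRPS12, the counterpart of bacterial S12 at the decoding centre (hg19 chr19:39421188-39423802, plus strand), had 16.9, 16.3 and 18.3 CPM in TEADi libraries, against 39.8, 34.7 and 29.997 CPM in GFP libraries. MRPS24 (hg19 chr7:43906157-43909492, minus strand), a small subunit protein, had 109, 98.4 and 96.7 CPM in TEADi libraries, against 212, 189 and 167 CPM in GFP libraries. None of these 3 small subunit genes overlapped between groups, and GFP library A was the highest in each. Their log2 fold changes were -0.98 ± 0.10 for MRPS26, -0.97 ± 0.10 for MRPS12 and -0.89 ± 0.08 for MRPS24 (SE), with limma adjusted p-values of 2.04e-07, 3.80e-07 and 7.30e-08 in that order. MRPS12 overlaps SARS2 on the opposite strand, which had 64.8% of its level.

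MRPL11, the counterpart of bacterial L11 at the base of the stalk where translation factors bind (hg19 chr11:66202546-66234209, minus strand), had 41.7, 35.8 and 37.6 CPM in TEADi libraries, against 77.9, 73.1 and 69.8 CPM in GFP libraries. MRPL1, the counterpart of the L1 stalk protein beside the tRNA exit site (hg19 chr4:78783674-78873944, plus strand), had 15.3, 15.4 and 15.5 CPM in TEADi libraries, against 34.6, 27.8 and 27.1 CPM in GFP libraries. Both were lower in every TEADi library than in any GFP library, by 47.9% in the mean for MRPL11 (log2 fold change -0.92 ± 0.08, SE; limma, adjusted p = 2.51e-08) and by 48.4% for MRPL1 (-0.90 ± 0.10; limma, adjusted p = 7.59e-07). MRPL4 (hg19 chr19:10362577-10370721, plus strand), whose bacterial counterpart L4 lines the exit tunnel, had 23.5, 26.0 and 27.5 CPM in TEADi libraries, against 49.2, 48.8 and 38.1 CPM in GFP libraries. MRPL3 (hg19 chr3:131181056-131221827, minus strand), whose bacterial counterpart L3 reaches towards the peptidyl transferase centre, had 144, 139 and 151 CPM in TEADi libraries, against 270, 238 and 239 CPM in GFP libraries. Both fell without overlap, with log2 fold changes of -0.79 ± 0.10 for MRPL4 (SE; limma, adjusted p = 3.01e-06) and -0.78 ± 0.07 for MRPL3 (limma, adjusted p = 5.08e-08). A pseudogene, MRPL3P1, is listed at a mean of 0.367 CPM.

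**Figure D3:**
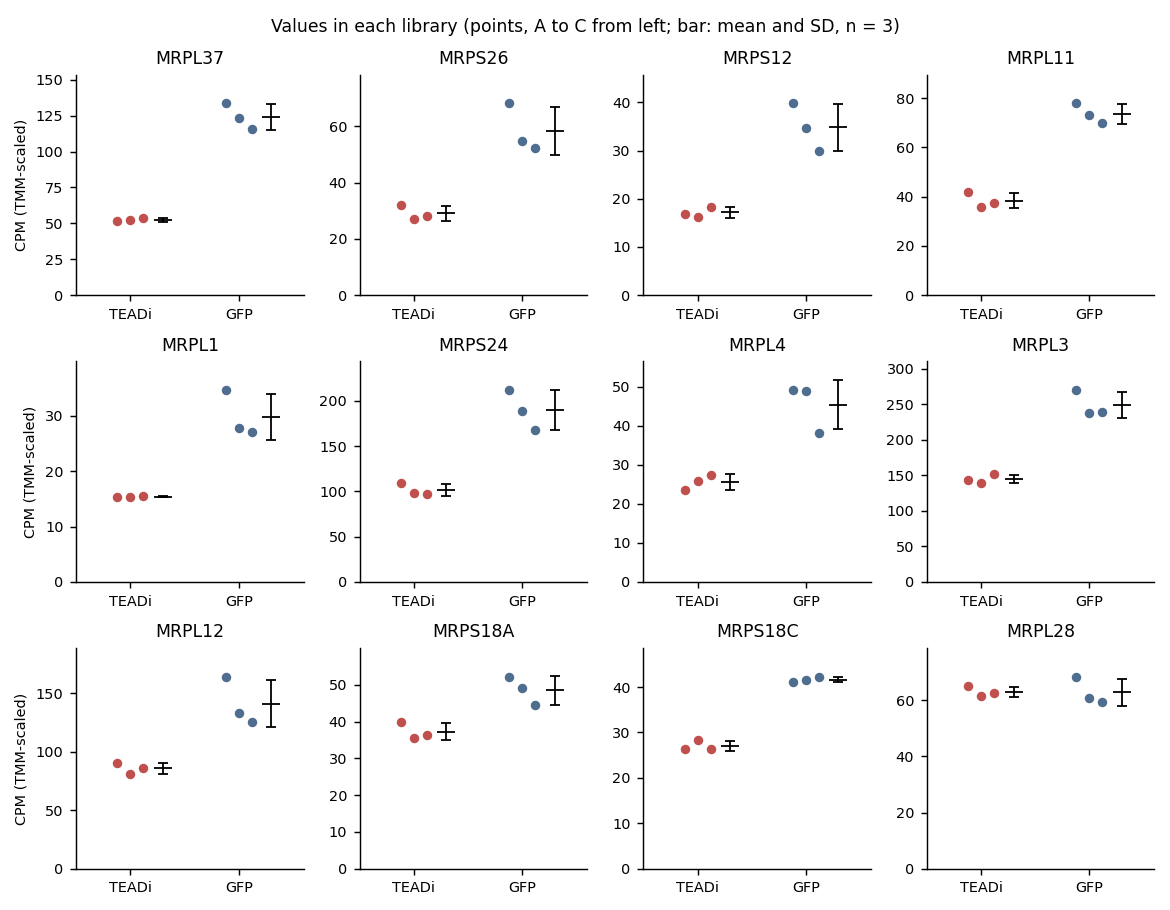
CPM in each library for 12 genes, TEADi (red) left of GFP (blue), libraries A to C from left to right within a group, with the mean and SD (n = 3) beside the points; every vertical axis starts at 0. In 11 panels all TEADi points lie below all GFP points, and in MRPL28 the groups overlap.

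MRPL12, the counterpart of the bacterial stalk protein L7/L12 that recruits translation factors (hg19 chr17:79670387-79674556, plus strand), had 90.3, 80.8 and 86.2 CPM in TEADi libraries, against 164, 133 and 126 CPM in GFP libraries. It was 39.2% lower in the mean (log2 fold change -0.70 ± 0.09, SE; limma, adjusted p = 2.38e-06), with GFP library A the highest. SLC25A10, on the same strand, overlaps it with 17.7% of its level. MRPS30, a large subunit protein despite its symbol (hg19 chr5:44809027-44820530, plus strand), was chosen after its values were seen and had 52.9, 54.9 and 59.7 CPM in TEADi libraries, against 105, 85.1 and 91.4 CPM in GFP libraries, again without overlap (log2 fold change -0.73; limma, adjusted p = 6.58e-07).

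The 3 paralogues related to bacterial S18 were all lower. MRPS18C, in the small subunit (hg19 chr4:84377085-84390888, plus strand), had 26.3, 28.3 and 26.4 CPM in TEADi libraries, against 41.2, 41.5 and 42.2 CPM in GFP libraries (log2 fold change -0.61; limma, adjusted p = 3.39e-06). MRPS18A, in the large subunit (hg19 chr6:43639040-43655528, minus strand), had 39.8, 35.7 and 36.3 CPM in TEADi libraries, against 52.1, 49.1 and 44.4 CPM in GFP libraries (log2 fold change -0.37; limma, adjusted p = 0.000816). MRPS18C differed by little among the GFP libraries, whereas MRPS18A was highest in GFP library A; in neither did the groups overlap.

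MRPS18B, the third paralogue, is listed only on 2 alternative sequences of the MHC region, named DBB and SSTO. The SSTO entry held 149.65 CPM in TEADi library A and no more than the smallest value in the other 5 libraries, and the DBB entry held 150.5 and 150.4 CPM in TEADi libraries B and C and 226, 203 and 208 CPM in the 3 GFP libraries. The sum of both entries was therefore even within the groups, at 150 ± 0.46 CPM with TEADi and 212 ± 12.2 CPM with GFP (SD, n = 3 each), 29.3% lower with TEADi (log2 fold change -0.49; limma, adjusted p = 4.62e-06). Taken by entry, the authors' deposited table gives a ratio of TEADi over GFP of 0.473 with an adjusted p of 0.0883 for the DBB entry, and a ratio of 733 with an adjusted p of 0.143 for the SSTO entry.

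The authors' deposited table gives 62 of the 76 genes an adjusted p under 0.05 with a lower mean in TEADi and 0 with a higher mean, beside 33.3% of the tested genes in the lower direction. Besides MRPS18B, MRPL45 and MRPS25 are lower here and miss that threshold in the authors' deposited table, while MRPL34 passes it there (adjusted p = 0.0308) and not here. MRPL45, a large subunit protein (hg19 chr17:36452989-36479101, plus strand), had 55.8, 52.9 and 53.5 CPM in TEADi libraries, against 88.6, 87.6 and 81.6 CPM in GFP libraries, a difference far beyond the spread between libraries (log2 fold change -0.66; limma, adjusted p = 3.17e-07). The authors' deposited table gives the same gene a ratio of 0.628 with an adjusted p of 0.862.

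The smallest falls that were called lay between -0.31 and -0.19 on the log2 scale and belonged to MRPL55, MRPS22, MRPL17, MRPL50, MRPS28, MRPL36, MRPS25 and MRPL32. MRPL17, the counterpart of bacterial L17 (hg19 chr11:6702013-6704632, minus strand), had 102, 94.1 and 92.3 CPM in TEADi libraries, against 125, 116 and 111 CPM in GFP libraries (log2 fold change -0.29; limma, adjusted p = 0.00177). MRPS22, a mitochondria-specific small subunit protein (hg19 chr3:138724648-139076065, plus strand), had 87.5, 91.6 and 94.0 CPM in TEADi libraries, against 121, 110 and 108 CPM in GFP libraries (-0.30; limma, adjusted p = 0.000983). The groups did not overlap in either gene, and both calls held in every alternative run. MRPS22 overlaps COPB2, a gene on the opposite strand with 431% of its level.

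The other 6 calls of this range sat close to the threshold. MRPL55 had 13.02, 15.5 and 16.0 CPM in TEADi libraries, against 20.95, 18.9 and 16.2 CPM in GFP libraries (limma, adjusted p = 0.0246), and MRPL50 had 15.4, 18.1 and 19.7 CPM in TEADi libraries, against 22.2, 20.5 and 22.4 CPM in GFP libraries (limma, adjusted p = 0.0230). MRPS28 had 28.9, 27.3 and 27.1 CPM in TEADi libraries, against 38.5, 32.5 and 30.2 CPM in GFP libraries (limma, adjusted p = 0.0194). The groups did not overlap in these 3 genes, but the highest TEADi library and the lowest GFP library stood close together. MRPL36, whose promoter is shown above, had 20.96, 22.7 and 22.2 CPM in TEADi libraries, against 28.3, 24.6 and 24.3 CPM in GFP libraries (limma, adjusted p = 0.0446). MRPS25 had 34.0, 35.7 and 38.0 CPM in TEADi libraries, against 43.6, 38.2 and 42.8 CPM in GFP libraries (limma, adjusted p = 0.0372). MRPL32, known to be processed by the m-AAA protease, had 43.7, 47.8 and 46.3 CPM in TEADi libraries, against 55.4, 50.5 and 51.7 CPM in GFP libraries (limma, adjusted p = 0.0336). The groups did not overlap in these genes either. All 6 calls were lost in some alternatives, and those of MRPL32, MRPL36, MRPS25 and MRPS28 with equal library totals, median-ratio factors and quantile normalization alike.

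Among the 12 genes not called, MRPL28, the counterpart of bacterial L28 (hg19 chr16:417384-420527, minus strand), had 65.03, 61.6 and 62.4 CPM in TEADi libraries, against 68.2, 60.8 and 59.4 CPM in GFP libraries. Its log2 fold change was 0.01 with a 95% interval of -0.15 to 0.16 (limma, adjusted p = 0.935), so a fall as deep as the median of the 76 genes lay outside the interval. MRPL35 had 50.6, 48.8 and 52.4 CPM in TEADi libraries, against 54.5, 52.0 and 55.3 CPM in GFP libraries (log2 fold change -0.09, 95% interval -0.24 to 0.06). MRPL53 had 40.5, 38.0 and 41.6 CPM in TEADi libraries, against 43.6, 45.2 and 37.9 CPM in GFP libraries (-0.07, 95% interval -0.25 to 0.10). The groups overlapped in all 3 genes. MRPL52, with 2 YY1 motifs in the promoter shown above, had 61.3, 55.8 and 65.7 CPM in TEADi libraries, against 71.7, 64.8 and 64.1 CPM in GFP libraries (limma, adjusted p = 0.146), and here too the groups overlapped. MRPL23 was at 59.7 to 63.5 CPM in TEADi libraries and at 64.8 to 76.4 CPM in GFP libraries, without overlap (log2 fold change -0.15; limma, adjusted p = 0.0946). MRPL44 was at 26.4 to 29.2 CPM in TEADi libraries and at 26.7 to 36.5 CPM in GFP libraries, with overlap (-0.18; limma, adjusted p = 0.127).

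The remaining 6 genes that were not called were named after their values were seen. MRPL34 was at 7.98 to 8.71 CPM in TEADi libraries and at 9.17 to 9.88 CPM in GFP libraries, a difference without overlap that missed the threshold (limma, adjusted p = 0.183). MRPS14 was at 14.7 to 16.6 CPM in TEADi libraries and at 16.1 to 17.4 CPM in GFP libraries, and it overlaps CACYBP, an opposite-strand gene far above it in level. MRPL40 was at 25.3 to 26.9 CPM in TEADi libraries and at 23.1 to 30.6 CPM in GFP libraries, and MRPL41 at 19.9 to 24.1 CPM with TEADi and at 19.3 to 24.4 CPM with GFP. The groups overlapped in these last 3 genes. MRPS36 was at 15.6 to 17.8 CPM in TEADi libraries and at 16.6 to 20.3 CPM in GFP libraries, with overlap (limma, adjusted p = 0.117).

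MRPL30, the counterpart of bacterial L30 and the lowest of the 76 genes in the table, varied most among TEADi libraries. It had 6.62, 1.51 and 3.44 CPM in TEADi libraries A, B and C, against 2.85, 2.74 and 3.07 CPM in the GFP libraries of the same letters, so the TEADi values lay on both sides of the GFP values. Its log2 fold change was 0.18, with a 95% interval of -0.38 to 0.73 (limma, adjusted p = 0.580). Without TEADi library B it was called higher (0.58; limma, adjusted p = 0.0190), and without TEADi library A its value was -0.22. C2orf15, MITD1 and LIPT1 overlap it, and C2orf15, on the same strand, averaged 70.4 CPM.

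Overlapping genes were counted because the use of strand in counting is not known. In hg19, 34 of the 76 genes overlapped another gene of the table, and 30 overlapped one with at least 10% of their level, of which 25 were called lower. The remaining 46 include MRPS18B, which has no entry on a chromosome and could not be checked for overlap. Of these 46 genes 39 were called lower. Over all tested genes 35.3% were.

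Genes that start beside a mitochondrial ribosomal protein gene were also examined. A start was here the outer end of the deposited hg19 span, which can differ from the RefSeq start used for the promoters above. Of 75 members placed on a chromosome, 24 (32.0%) had a tested gene starting within 1000 bases on the opposite strand in the other direction, beside 17.1% of 13368 tested genes. MRPS11 and MRPL46, a pair of members whose starts are 34 bases apart on chromosome 15, were both lower. MRPS11 had 18.4, 17.2 and 19.7 CPM in TEADi libraries, against 24.4, 22.1 and 23.2 CPM in GFP libraries (log2 fold change -0.32; limma, adjusted p = 0.00627), and MRPL46 had 11.6, 12.5 and 12.97 CPM in TEADi libraries, against 16.6, 14.9 and 17.4 CPM in GFP libraries (-0.37; limma, adjusted p = 0.00476). Among the 22 partners that are not members, 8 (36.4%) were called lower, beside 35.3% of all tested genes, 3 (13.6%) higher, beside 25.5%, and 11 neither, and their median log2 fold change was -0.14. The 3 higher partners were EME2 beside MRPS34 (log2 fold change 1.93), TMEM63B beside MRPL14 (0.72) and SLC7A7 beside MRPL52 (0.52), and MRPS34 and MRPL14 were themselves lower (-0.39 and -0.48).

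Mitochondrial ribosomal proteins with other symbols were set beside the 76 genes. Of 7 such subunits 6 were called lower, with a median of -0.32, beside 35.3% of all tested genes called lower. AURKAIP1, a small subunit protein, had 74.8, 67.8 and 77.9 CPM in TEADi libraries, against 122, 116 and 98.1 CPM in GFP libraries (log2 fold change -0.60; limma, adjusted p = 8.80e-06). ICT1, a large subunit protein that can release stalled peptides, had 26.7, 25.1 and 25.4 CPM in TEADi libraries, against 39.2, 37.4 and 34.7 CPM in GFP libraries (-0.51; limma, adjusted p = 4.22e-05). PTCD3 and CHCHD1, both in the small subunit, were lower by 0.29 and 0.36 on the log2 scale, and MRP63 was not called (-0.27; limma, adjusted p = 0.0558). The number called in this list was 4 with equal totals outside the mitochondrial genome.

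**Figure D4:**
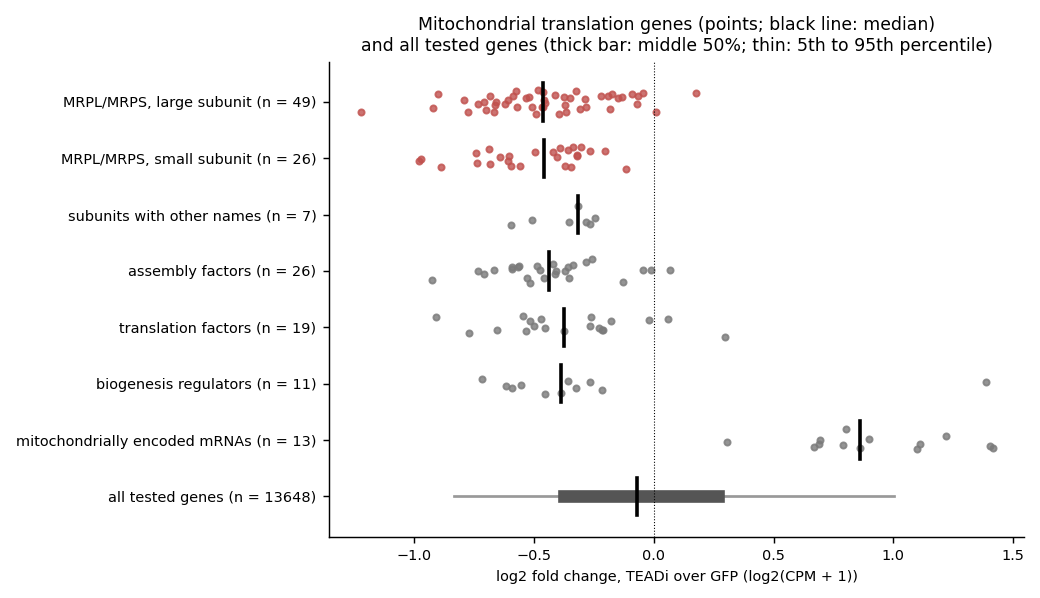
Log2 fold change, TEADi over GFP, of each gene (points) in the large subunit, the small subunit and 5 related lists, with the median of each list as a black line; the bottom row gives the spread of all 13648 tested genes. The medians of both subunits lie at -0.46, that of all tested genes at -0.07 and that of the 13 mitochondrially encoded mRNAs at 0.86. Without GFP library A, which is not drawn, the median of these mRNAs was 0.30.

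Factors that build or run the mitochondrial ribosome moved in the same direction. Of 26 assembly factors 22 were called lower and 0 higher, with a median of -0.44. Over all tested genes 35.3% were called lower and 25.5% higher. RBFA, which binds the maturing small subunit, had 18.4, 19.4 and 17.8 CPM in TEADi libraries, against 38.2, 36.5 and 33.9 CPM in GFP libraries (log2 fold change -0.93; limma, adjusted p = 8.18e-08). RPUSD4 and NGRN, which act on the large subunit RNA, were lower by 0.74 and 0.71 on the log2 scale, and RNMTL1, an RNA methyltransferase, by 0.67. Of 19 translation factors 13 were called lower and 1 higher, with a median of -0.37. MTIF2, the mitochondrial initiation factor that brings in the initiator tRNA, averaged 65.9 ± 3.98 CPM in TEADi libraries and 105 ± 6.83 CPM in GFP libraries (SD, n = 3 each; log2 fold change -0.66; limma, adjusted p = 6.87e-07). C12orf65, of the release factor family, averaged 9.72 ± 0.14 CPM with TEADi and 19.2 ± 1.75 CPM with GFP (-0.91). The exception was the release factor MTRF1L, called higher with 72.2, 74.1 and 78.4 CPM in TEADi libraries, against 64.97, 56.3 and 61.0 CPM in GFP libraries (0.30; limma, adjusted p = 0.00194).

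The mRNAs that these ribosomes translate went the other way. Of 13 mitochondrially encoded mRNAs 12 were called higher and 0 lower, beside 25.5% higher and 35.3% lower over all tested genes. Their summed level was 30853, 30979 and 37291 CPM in TEADi libraries A, B and C, against 7146, 21706 and 25206 CPM in the GFP libraries of the same letters. The sums did not overlap, but GFP library A was far below the other GFP libraries. In 8 of the 13 mRNAs all TEADi values lay above all GFP values, beside 27.7% of all tested genes, and in 5 the groups overlapped. Without GFP library A, left out here after the values were seen, 8 of the 13 were called higher and 0 lower. Of all 13648 tested genes 3431 were then called higher and 4582 lower. MT-ND3, the mRNA not called over all libraries, was at 329, 331 and 368 CPM in TEADi libraries. In GFP libraries it was at 153, 355 and 390 CPM in letter order, so GFP library C lay above every TEADi library. The median log2 fold change of the 13 mRNAs was 0.30 without GFP library A, against 0.86 over all libraries. It was 0.19 against GFP library C alone. Over GFP libraries B and C alone the ratio of the mean sums was 1.41, against 1.83 over all 3. Of the ribosomal RNAs of these ribosomes, MT-RNR2 of the large subunit was called higher, with 4121, 4082 and 4560 CPM in TEADi libraries, against 869, 2663 and 2731 CPM in GFP libraries, and MT-RNR1 of the small subunit was not called (0.37; limma, adjusted p = 0.300).

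**Figure D5:**
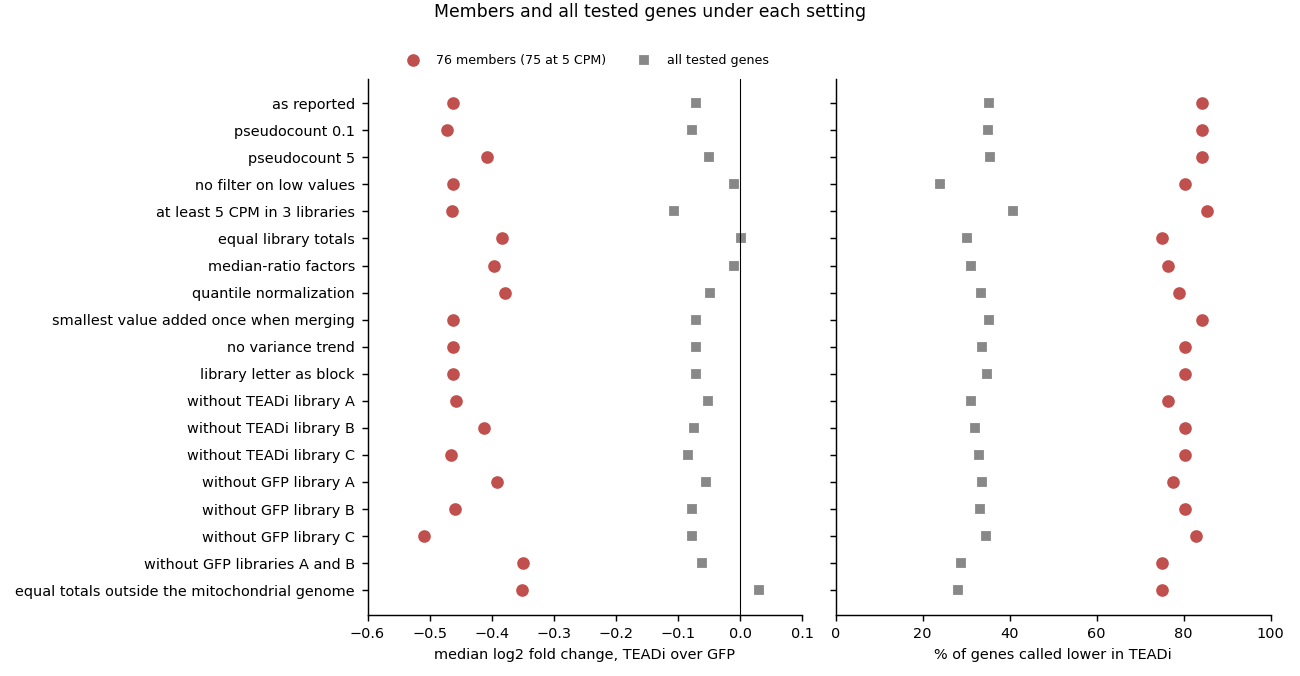
Median log2 fold change, TEADi over GFP (left), and percentage of genes called lower in TEADi (right) for the 76 mitochondrial ribosomal protein genes (red circles; 75 at the stricter filter) and all tested genes (grey squares) under each setting. The members' median lies between -0.51 and -0.35 in every setting drawn. The setting without GFP libraries A and B keeps GFP library C alone in its group.

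Spread between libraries was small against these differences. The median standard deviation of the 76 genes on the log2 scale was 0.07 between TEADi libraries and 0.12 between GFP libraries. Mean levels in GFP libraries ran from 2.89 CPM for MRPL30 to 249 CPM for MRPL3, and Spearman's rho between mean log2 level and log2 fold change over the 76 genes, which share all 6 libraries, was -0.29, given as a description.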

How the data were processed

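The authors deposited a table of CPM for 6 libraries, scaled with TMM factors per the file headers, and a table of statistics in which the ratio of TEADi over GFP, a signed fold change score, the p-value and the adjusted p of each entry are the authors' own, from a test left unnamed in that table. The build was hg19 and the tools were STAR 2.5.1, Partek 8.0.19.0819 and Trimmomatic 0.36, per the submitters' processing notes, which give no roles. How reads were assigned to genes, with which annotation and with what regard to strand is not given in the sources used here.

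No deposited CPM value is 0: each library's smallest value stands for no reads. Low values were whole multiples of it, to within 0.1, in 82.9% to 84.2% of cases, too few for whole reads to be recovered, and no count model was fitted. The 421 symbols with more than 1 of the 19921 entries were summed. Genes that reached 1 CPM in 3 or more of the 6 libraries entered a model on log2(CPM + 1) without covariates (R 4.3.3 and limma 3.58.1, lmFit then eBayes with a variance trend), and p-values were adjusted by Benjamini-Hochberg over all of them. Log2 fold changes are fitted values, which understate the change of low genes; percentages and SDs are of CPM. The code was tested on simulated data. Coordinates are those of the deposited table, the end being its stop minus 1.

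Named members were the 8 called genes with the lowest and the 8 with the highest log2 fold change, MRPS18A, MRPS18B, MRPS18C, MRPL12, and up to 6 uncalled genes by mean CPM; from each other list, up to 4 called genes with the smallest p and any that went against its list. Other genes were chosen after their values were seen. Members, lists and tests were chosen with earlier results of these data known. All 6 value columns were matched to samples by name. The 19 alternative settings covered pseudocounts of 0.1 and 5, filters, scalings, merging, the variance trend, the library letter as a block, libraries left out and the authors' statistics. Other steps used matplotlib 3.10.9, scipy 1.17.1, pandas 2.3.3 and numpy 2.4.6 in Python 3.11.15.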

Additional observations from a re-analysis of the deposited data

How the results depend on the processing

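Over the alternatives run, between 57 and 64 of the 76 mitochondrial ribosomal protein genes were called lower, beside 24.1% to 40.8% of all tested genes. The count stayed at 58 to 63 when any 1 library was left out, beside 31.0% to 34.6% of all tested genes. The number called higher was 0 to 1 when a library was left out, the 1 being MRPL30 without TEADi library B, and 0 in every other alternative. The median log2 fold change of the 76 genes was -0.35 without GFP libraries A and B and -0.35 with equal totals outside the mitochondrial genome. Library letters recur in both groups, but deviations from the group mean correlated at only 0.08, -0.06 and -0.02 between libraries of the same letter, so they were not used as pairs. With the letter as a replicate block 61 members were called lower, beside 34.8% of all tested genes. The lost calls were MRPL32, MRPL36 and MRPS25.

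Signs turned only among genes that were not called. When any 1 library was left out, MRPL28 ranged from -0.031 to 0.068, MRPL30 from -0.22 to 0.58 and MRPL40 from -0.15 to 0.048 on the log2 scale. With equal library totals MRPL53 was 0.0067, MRPL40 0.032 and MRPL41 0.012. With median-ratio factors MRPL40 was 0.019, and with quantile normalization MRPL53 was 0.0054 and MRPL40 0.027. Without GFP libraries A and B MRPL53 was 0.078, MRPL44 0.042, MRPL40 0.16 and MRPL41 0.14. With equal totals outside the mitochondrial genome MRPL35 was 0.020, MRPL53 0.038, MRPL40 0.063 and MRPL41 0.042. The cause was not tested. Groups of 3 libraries, which may be technical replicates, limit all tests, and counting depth is known only through the smallest value of each library.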
